A study of Mus musculus with 2 samples.

Results

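The genes described here are 9 complement components and regulators, C1qa, C1qb, C1qc, C1ra, C1s, C3, C4b, Cfb and Serping1, which were found by symbol in the RNA-sequencing (RNA-seq) tables of cultured dentate gyrus (DG) astrocytes. Of the 9 genes, 7 had a row in both tables, among 16302 symbols in all. C1ra and Cfb matched no row and were not analysed here. The study asked how the loss of β-arrestin 1 (β-arr1), an adaptor of G-protein coupled receptors that also acts in the nucleus, changes the transcripts of astrocytes that surround neural precursors. There was 1 library from wildtype (WT) mice and 1 library from β-arr1 knockout (KO) mice, both of the C57BL/6 strain by the labels and of C57BL/6J background by the methods. The KO is a germline deletion, so that every cell type of the culture carried it. According to the methods of the study, the cells came from the DG of adult mice, were grown in medium with serum and were shaken to remove proliferating cells, oligodendrocyte progenitors and neurons. No step that removes attached microglia is described. The age of the mice used for these cultures beyond adult is not given in the sources used here. A figure legend of the study gives 3 mice per group, and the labels do not say whether these were pooled in each library.

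Complement is a cascade of blood and tissue proteins that tags targets for removal. C1q, built of A, B and C chains, binds the target and activates the protease C1r and through it C1s, which cleaves C4 and C2 to form an enzyme that cleaves C3. Factor B takes the place of C2 in the alternative pathway, and C1 inhibitor, encoded by Serping1, blocks C1r and C1s. In brain, C1q is known to come mostly from microglia, whereas C3 and C4 are known as products of reactive astrocytes.

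Values are FPKM, that is mapped fragments scaled by the length of the transcript in kilobases and by the depth of the library, which are levels per length and can be compared between genes. β-arr1 KO was compared with WT by the quotient of the FPKM values as deposited, and a gene was called when this ratio was above 3/2 or below 2/3. The libraries held an estimated 9.54 M (WT) and 9.82 M (β-arr1 KO) mapped fragments. With 1 library per genotype, no spread between cultures was measured and no test of genotype was possible. The 95% intervals given for ratios (exact Clopper-Pearson, from the estimated fragments of a gene) cover counting error alone, and fragments copied in library amplification are not independent molecules. Arrb1, which encodes β-arr1, had 7.62 FPKM in WT against 2.72 FPKM in β-arr1 KO, with a ratio of 0.358 (interval 0.301 to 0.424), so that the libraries differed in the direction of their labels.

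Of the 7 complement genes measured, all passed the minimum, a level of 1 FPKM or more in either library. None had a ratio above 3/2 and none below 2/3. Of the 12646 genes analysed, 9.56% were above and 8.28% were below, 17.8% in either direction. These shares include genes listed in 1 table only, while all 7 members were listed in both. Among the 12171 analysed genes listed in both tables, 7.9% were above and 6.74% below. With 7 genes, a count of 0 is therefore not read as a trait of the members. The ratio was under 1 for 5 of the 7 genes and over 1 for the other two. Their median ratio was 0.952 (log2 -0.07), and the median of all genes was 1.01 (log2 0.02). The 7 genes fell into a pair of sets by level and by ratio, described in turn: the C1q chains, which were abundant and lower in the β-arr1 KO library, and the other four, which were at low or moderate level and had ratios near 1.

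The 3 C1q genes lie side by side on the minus strand of chromosome 4 (mm9), with C1qa at chr4:136451831-136454759, C1qc at chr4:136445717-136448829 and C1qb at chr4:136436061-136442092, and each is annotated with 3 exons. Each chain carries a collagen-like stretch, in which a glycine comes back after each pair of other residues, and these stretches wind around each other into the stalk of C1q. The first 90 coding bases of the longest such run in each gene are shown because they are the shared feature of the family, with the glycine codons in capitals, from transcripts C1qa-001, C1qb-001 and C1qc-001 of the annotation:
C1qa: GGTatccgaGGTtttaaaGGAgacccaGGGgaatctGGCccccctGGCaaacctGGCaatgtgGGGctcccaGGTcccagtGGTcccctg
C1qb: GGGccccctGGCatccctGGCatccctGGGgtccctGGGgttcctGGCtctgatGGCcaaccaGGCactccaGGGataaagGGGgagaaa
C1qc: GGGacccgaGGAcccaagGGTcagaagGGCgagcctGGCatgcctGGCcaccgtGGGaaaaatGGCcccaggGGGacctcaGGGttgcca
The unbroken run of glycine codons was 16 codons in C1qa, 29 in C1qb and 16 in C1qc. No window of 100 bases, the length of a read, was shared between any pair of the 3 transcripts, so that reads of one chain were not expected to be assigned to another.

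C1qa had 246 FPKM in WT against 181 FPKM in β-arr1 KO, with a KO to WT ratio of 0.738 (log2 -0.44, interval 0.690 to 0.788). C1qb had 250.2 FPKM in WT against 198 FPKM in β-arr1 KO, with a KO to WT ratio of 0.793 (log2 -0.33, interval 0.745 to 0.845). C1qc had 278 FPKM in WT against 208 FPKM in β-arr1 KO, with a KO to WT ratio of 0.748 (log2 -0.42, interval 0.706 to 0.792). All 3 chains were thus lower in the β-arr1 KO library, and the intervals left out 1 and overlapped each other. They rested on 1548 to 2736 estimated fragments per gene and library, so that counting error was small, but the difference between 2 cultures of the same genotype is unknown. No chain reached the limit of 2/3.

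Summed over the chains, C1q transcripts came to 773 FPKM in WT against 587 FPKM in β-arr1 KO, with a ratio of 0.759. They made up 96.6% of the summed level of the 7 complement genes in WT and 95.6% in β-arr1 KO. Each chain was among the top 1.21% of genes by level in WT and among the top 1.80% in β-arr1 KO. Among the 594 genes with a mean of at least 100 FPKM, the median log2 ratio was -0.01, 23 genes were above 3/2 and 25 below 2/3. A ratio under 0.8, a bound chosen after the C1q values were seen, was found for all 3 chains and for 11.6% of these 594 genes. C1q was therefore abundant in these cultures, with each chain at a level above that of the astrocyte marker Gfap in WT (189 FPKM in WT against 192 FPKM in β-arr1 KO, ratio 1.02), and close to it in β-arr1 KO.

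The chains also kept nearly the same proportions in both libraries. The level of C1qb relative to C1qa was 1.02 in WT and 1.10 in β-arr1 KO. The level of C1qc relative to C1qa was 1.13 in WT and 1.15 in β-arr1 KO. That of C1qc relative to C1qb was 1.11 in WT but 1.05 in β-arr1 KO. C1qc was the highest chain and C1qa the lowest in both libraries, with steps of at most 1.15 between them. In the plot of the levels, the C1q genes stand apart from the other members.

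**Figure D1:**
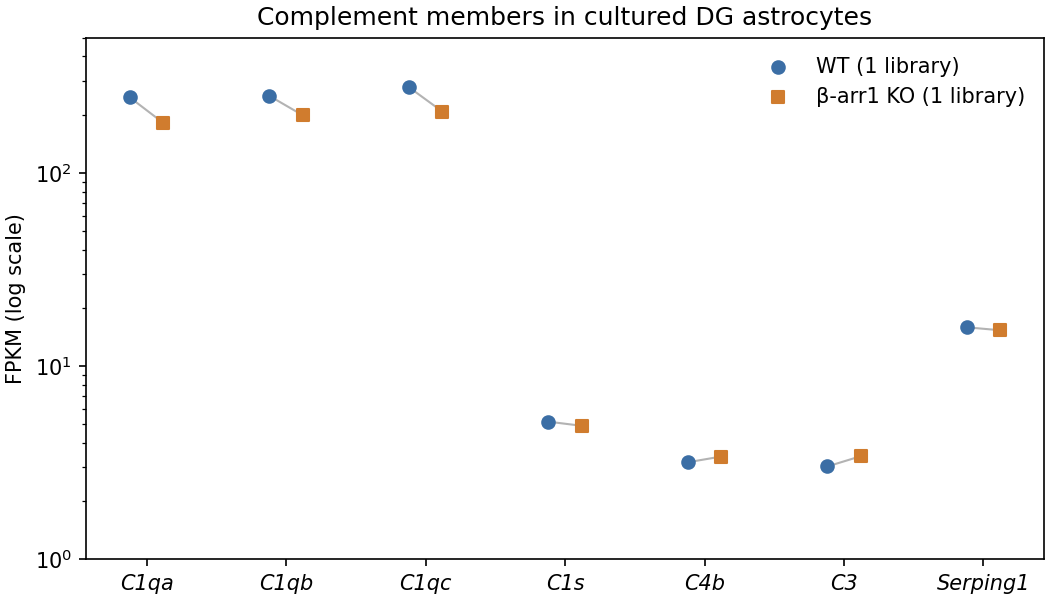
FPKM (log axis) of the 7 complement genes measured, in the WT library (circles) and the β-arr1 KO library (squares), 1 library each, so that there are no error bars. The 3 C1q chains lie between 181 and 278 FPKM and are lower in β-arr1 KO, while the other 4 genes lie between 3.02 and 15.9 FPKM and hardly differ.

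The bases upstream of the 3 C1q genes were read from the NCBIM37 genome (the same build as mm9), because the 3 genes were lower together. PU.1, a factor of myeloid cells known for binding purine-rich sites, has the core GAGGAA. It was searched on both strands in the 250 bases before the annotated start, and matches are in capitals (as TTCCTC where the match is on the other strand), written 5′ to 3′ in the direction of the gene, which is the minus strand. The windows are chr4:136454719-136454968 for C1qa, chr4:136442103-136442352 for C1qb and chr4:136448981-136449230 for C1qc:
C1qa upstream: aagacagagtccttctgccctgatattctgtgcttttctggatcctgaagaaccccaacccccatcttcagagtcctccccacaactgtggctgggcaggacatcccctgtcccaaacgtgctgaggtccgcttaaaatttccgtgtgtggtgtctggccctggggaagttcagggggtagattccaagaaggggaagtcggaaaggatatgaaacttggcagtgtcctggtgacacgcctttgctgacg
C1qb upstream: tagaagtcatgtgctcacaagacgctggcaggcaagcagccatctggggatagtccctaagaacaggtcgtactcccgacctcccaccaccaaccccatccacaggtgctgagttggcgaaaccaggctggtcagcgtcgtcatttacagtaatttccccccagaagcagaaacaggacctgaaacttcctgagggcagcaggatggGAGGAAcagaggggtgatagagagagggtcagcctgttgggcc
C1qc upstream: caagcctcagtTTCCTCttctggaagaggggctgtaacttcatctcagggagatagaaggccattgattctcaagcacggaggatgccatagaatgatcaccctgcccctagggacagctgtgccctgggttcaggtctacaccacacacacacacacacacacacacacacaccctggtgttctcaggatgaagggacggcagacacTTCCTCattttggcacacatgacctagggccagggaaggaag
C1qb had 1 match, whose first base was 43 bases before the start. C1qc had 2 matches, at 42 and 239 bases before the start, and C1qa had none in this window. Of all 22215 upstream windows of this length, 23.0% held the core, and of the 9 complement genes C1qb, C1qc and Serping1 did. The site of interferon-activated STAT factors, TTCNNNGAA, which overlaps with no PU.1 match here, was in 6.83% of the windows and in those of 2 of the 9 genes, C1qa at 68 bases and Cfb at 43 bases before the start, when searched the same way. The core of the interferon-stimulated response element was in 3.36% of the windows and in none of the 9. These matches describe the letters of the windows and were not measured as sites. The symbol Spi1, of the gene that encodes PU.1, matched no row and no gene of the annotation used. Whether the gene is listed under another symbol was not examined, so the level of PU.1 is not given here.

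Next in the cascade, C1s is the protease that cleaves C4 and C2. It had 5.15 FPKM in WT against 4.90 FPKM in β-arr1 KO, with a KO to WT ratio of 0.952 (log2 -0.07, interval 0.744 to 1.22). The interval includes 1, and with 136 and 134 estimated fragments a difference of up to the bounds of the interval could not be seen at this depth. Its row ran over chr6:124480362-124586103 in both tables, and overlapped the annotated gene Gm5077 (chr6:124574584-124587055), whose transcript was 96.0% identical to that of C1s over the aligned bases. Of the 100-base windows of C1s, 7.90% were also found in Gm5077. The value of C1s may therefore hold reads of Gm5077.

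C1r, the partner protease of C1s, has a pair of near-identical genes in mouse, C1ra and C1rb. C1ra is annotated at chr6:124462423-124473458, on the plus strand. No row carried the symbol C1ra, but the row of C1rb, chr6:124462639-124531062, covered nearly all of it. The transcripts C1ra-201 and C1rb-201 were 98.1% identical over 2166 aligned bases, and 903 of the 2652 windows of 100 bases in C1ra (34.0%) occurred unchanged in C1rb. The first 120 coding bases of C1ra and the bases of C1rb aligned to them are shown, since they hold 1 difference, given in capitals:
C1ra: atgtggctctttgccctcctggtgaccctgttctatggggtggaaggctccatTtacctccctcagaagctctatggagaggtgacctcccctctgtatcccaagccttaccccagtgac
C1rb: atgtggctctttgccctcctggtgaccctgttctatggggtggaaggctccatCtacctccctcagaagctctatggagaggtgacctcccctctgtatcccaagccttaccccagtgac
A read from this stretch that misses the single difference could come from either gene. The C1rb row had 4.80 FPKM in WT against 6.34 FPKM in β-arr1 KO, with a KO to WT ratio of 1.32 (interval 1.00 to 1.75) from 91 and 124 estimated fragments. It was the highest ratio among the initiating genes, it stayed under the limit of 3/2, and it could not be divided between C1ra and C1rb. The row of C1rb also overlapped that of C1s, which lies on the other strand. Reads of both strands in the shared part could not be told apart, since no strand-specific library is stated. When the FPKM of both rows were summed, the ratio was 1.13.

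C4b encodes C4, the first substrate of C1s. It had 3.17 FPKM in WT against 3.40 FPKM in β-arr1 KO, with a KO to WT ratio of 1.07 (log2 0.10, interval 0.858 to 1.34), with 158 and 174 estimated fragments. The level thus differed by less than the counting error. The annotated gene is chr17:34865325-34880827, on the minus strand, whereas the row ended at 34960399, at the end of the neighbouring copy C4a (chr17:34946037-34960409), which encodes sex-limited protein and had no row of its own. The transcripts C4b-001 and C4a-001 were 96.1% identical over 5367 aligned bases, and 16.5% of the 100-base windows of C4b occurred in C4a. The first 120 coding bases of C4b and the aligned bases of C4a hold 3 differences, given in capitals:
C4b: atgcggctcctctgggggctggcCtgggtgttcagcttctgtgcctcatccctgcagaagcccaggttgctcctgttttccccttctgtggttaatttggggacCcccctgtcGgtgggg
C4a: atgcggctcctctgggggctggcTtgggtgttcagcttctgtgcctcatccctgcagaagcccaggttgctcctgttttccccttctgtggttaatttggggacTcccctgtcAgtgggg
Values under the symbol C4b may thus be those of both copies. In the WT table only, the row of the neighbouring gene Stk19 (chr17:34881696-34973848, 16.8 FPKM) overlapped the C4b row. In the β-arr1 KO table the Stk19 row was chr17:34960938-34973848 (20.5 FPKM) and did not overlap it. Summing all rows that overlap the C4b row therefore gave a ratio of 0.170, below 2/3, through the different bounds of the Stk19 rows, while the C4b value itself differed little.

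C3 encodes the central component, on which all pathways of the cascade meet. At chr17:57343396-57367559, it had 3.02 FPKM in WT against 3.41 FPKM in β-arr1 KO, with a KO to WT ratio of 1.13 (log2 0.18, interval 0.898 to 1.42), with 143 and 166 estimated fragments. The C3 row overlapped no other row and its transcript shared no 100-base window with C4b. C3 and C4b were at nearly the same low level in each library, with a C3 to C4b ratio of 0.951 in WT and 1.00 in β-arr1 KO. These were the only members higher in the β-arr1 KO library, and both intervals include 1.

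Cfb encodes factor B of the alternative pathway. It is annotated at chr17:34993319-34999463, no row carried its symbol, and Cfb was not analysed here. The adjoining gene C2, whose product has the same place in the classical pathway and whose transcript shared no 100-base window with Cfb, had 1.86 FPKM in WT against 1.57 FPKM in β-arr1 KO, with a KO to WT ratio of 0.840 (interval 0.530 to 1.33). The C2 row also overlapped the annotated gene Gm20547 (chr17:34993357-35018987), whose span takes in most of Cfb. The map of row spans shows where the rows and the annotated genes part.

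**Figure D2:**
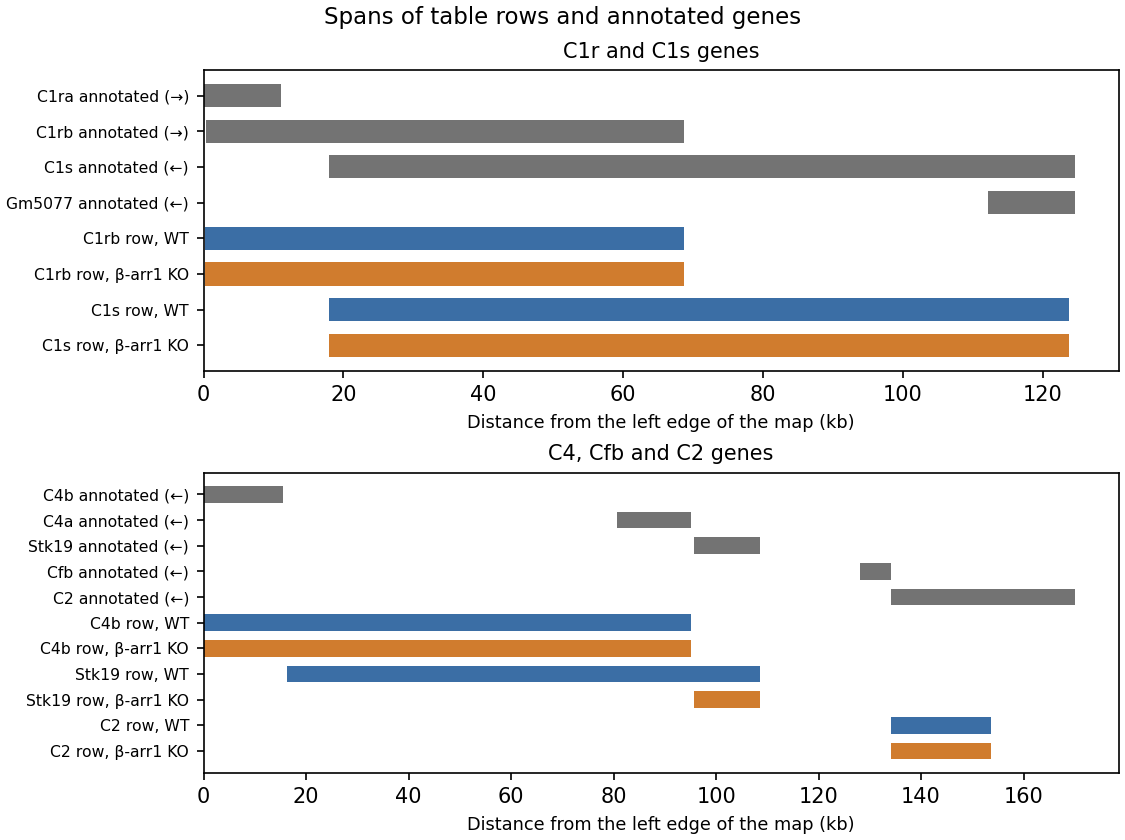
Spans of annotated genes (grey, with the direction of transcription) and of the rows of the WT (blue) and β-arr1 KO (orange) tables, in kb from the left edge of each map. The C1rb row takes in nearly all of C1ra, the C1s row reaches Gm5077 and the C4b row reaches C4a. The Stk19 row starts at different places in the WT and β-arr1 KO tables, and none of the rows drawn lies on Cfb.

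Serping1, the inhibitor of C1r and C1s, was the highest of the members outside C1q. At chr2:84605517-84615586, it had 15.9 FPKM in WT against 15.3 FPKM in β-arr1 KO, with a KO to WT ratio of 0.965 (log2 -0.05, interval 0.804 to 1.16), with 242 and 240 estimated fragments. The interval includes 1. C1s was expressed at 0.325 times the level of its inhibitor in WT and 0.320 times in β-arr1 KO. Together C1s, C3, C4b and Serping1 came to 27.2 FPKM in WT against 27.0 FPKM in β-arr1 KO, with a KO to WT ratio of 0.993, beside the 0.759 of the C1q sum.

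The other genes of the complement system were taken from a list of 49 genes, of which 37 were listed in a table and 27 reached 1 FPKM. Of the 26 with a ratio, 3 were above 3/2, 8 were below 2/3 and 15 lay between, and the ratio was under 1 for 18. Of the 12171 analysed genes listed in both tables, 7.9% were above and 6.74% below. The remaining gene, C8g, was listed in WT only and is not in these counts. Their median ratio was 0.846. Genes past the limits were found among these other complement genes, mostly below. Of these, Hc and Csmd1 reached 1 FPKM in β-arr1 KO only, and Cd46, Gpr77 and Vsig4 in WT only. These genes entered the counts through the library where they were higher, so the counts are not read as a trait of the complement genes.

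Among the other initiating genes and convertase subunits, 7 had a ratio, none was above 3/2 and 1 was below 2/3. This was Fcna, which encodes ficolin A, a sugar-binding starter of the lectin pathway, with 3.47 FPKM in WT against 1.43 FPKM in β-arr1 KO (ratio 0.412, interval 0.219 to 0.743). Masp1, which encodes a protease of that pathway, was far more abundant, with 61.7 FPKM in WT against 52.7 FPKM in β-arr1 KO (ratio 0.855, interval 0.810 to 0.902). Colec12, a scavenger collectin, had 45.3 and 36.6 FPKM (ratio 0.809, interval 0.747 to 0.876). Cfp, which encodes properdin, the stabiliser of the alternative convertase, had 21.1 and 16.5 FPKM (ratio 0.781, interval 0.656 to 0.930). C1rl, a C1r-like protease gene, had 1.24 and 1.06 FPKM (ratio 0.857, interval 0.505 to 1.45). All of these but C1rb were lower in β-arr1 KO, and 2 of the 7 intervals, those of C2 and C1rl, include 1.

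Of the terminal components, only Hc, which encodes C5, gave a ratio. It had 0.119 FPKM in WT against 1.90 FPKM in β-arr1 KO, with a KO to WT ratio of 16.0 (interval 7.08 to 44.6), from 6 and 98 estimated fragments. It was the highest ratio of the complement genes, at a low level in both libraries, and it was 2.59 with a pseudocount of 1 FPKM. C8g was listed in WT only (3.84 FPKM), where its row overlapped that of Fbxw5.

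Of 8 regulators, 2 were above 3/2 and 3 below 2/3. Cd59a, which encodes a blocker of the membrane pore, had 32.9 FPKM in WT against 19.3 FPKM in β-arr1 KO (ratio 0.587, interval 0.508 to 0.677), in a row that spans its copy Cd59b. The Cd59a row ended at 103964903 in WT, where it overlapped the annotated A930018P22Rik, but at 103955508 in β-arr1 KO. Its values are thus for different spans. C4bp, which encodes a binder of C4b, had 2.94 and 1.13 FPKM (ratio 0.385, interval 0.247 to 0.586). The third was Cd46, a membrane cofactor at the edge of the minimum, with 1.01 and 0.390 FPKM (ratio 0.388) and an interval of 0.124 to 1.04 that includes 1.

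The regulators above 3/2 were Csmd1, which encodes a large membrane protein with complement control domains, and Cd55, which encodes decay accelerating factor. Csmd1 had 0.951 FPKM in WT against 1.94 FPKM in β-arr1 KO (ratio 2.04, interval 1.64 to 2.54). Cd55 had 7.62 and 11.5 FPKM (ratio 1.51, interval 1.27 to 1.80), in a row that spans its copy Daf2, and it was just under the limit, at 1.49, when the libraries were rescaled to a median ratio of 1. The regulator of highest level was Clu, which encodes clusterin, with 193 and 229 FPKM (ratio 1.18, interval 1.13 to 1.24). Cr1l, the rodent membrane inhibitor Crry, had 13.4 and 15.4 FPKM (ratio 1.15, with an interval that includes 1), and Susd4 had 2.50 and 2.68 FPKM (ratio 1.07, interval 0.761 to 1.52). The regulators were therefore divided, with a median ratio of 1.11, and the membrane-bound Cd59a and Cd55 lay on opposite sides of 1.

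Of 10 receptors and binding proteins, none was above 3/2 and 4 were below 2/3, with a median ratio of 0.729. C3ar1, the receptor of the C3a peptide, had 55.0 FPKM in WT against 26.2 FPKM in β-arr1 KO (ratio 0.476, interval 0.442 to 0.512), the lowest ratio among the receptors over 10 FPKM in WT. C5ar1, the receptor of C5a, had 31.5 and 22.2 FPKM (ratio 0.706, interval 0.629 to 0.792), and Gpr77, which encodes the second C5a receptor, had 1.12 and 0.673 FPKM (ratio 0.603, interval 0.338 to 1.05). The counting interval of C3ar1 did not overlap that of C3, the gene of its ligand, whose ratio was 1.13. With 1 library per genotype, this describes these libraries, and a difference between genotypes was not tested.

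Itgam and Itgb2, the subunits of the C3 fragment receptor of microglia, had ratios of 0.871 (34.9 and 30.4 FPKM, interval 0.809 to 0.937) and 0.753 (35.2 and 26.5 FPKM, interval 0.682 to 0.830). Vsig4, a macrophage receptor of C3 fragments, had 2.08 and 0.806 FPKM (ratio 0.388, interval 0.166 to 0.837). Cd93, first described as a C1q receptor, had 6.32 and 3.83 FPKM (ratio 0.607, interval 0.515 to 0.714). The Cd93 row ended at 148346424 in WT, far past the annotated gene, but at 148269271 in β-arr1 KO, so its values are for different spans. Among the C1q-binding proteins found in most cells, C1qbp had 70.0 and 75.1 FPKM (ratio 1.07, interval 0.965 to 1.19), Calr had 587 and 519 FPKM (ratio 0.885, interval 0.861 to 0.909) and Lrp1 had 183 and 156 FPKM (ratio 0.851, interval 0.836 to 0.867). The broadly expressed binders thus lay nearer to 1 than C3ar1, Vsig4 and Cd93. Itgam (0.871), however, lay nearer to 1 than Lrp1 (0.851), so the receptors were not divided by breadth of expression. The plot of ratios shows the complement genes described here that had a ratio.

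**Figure D3:**
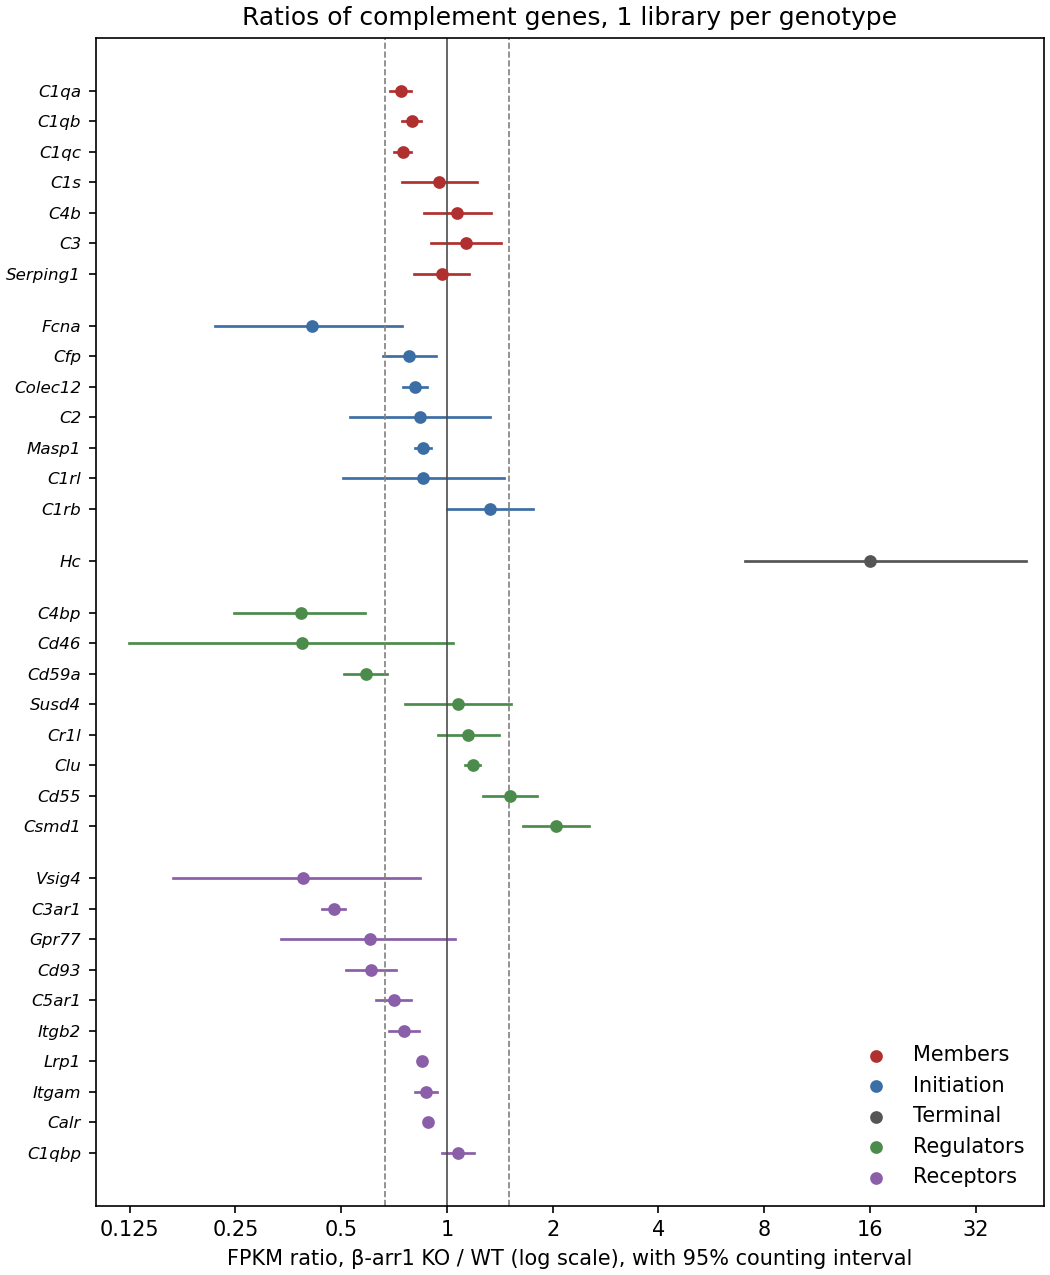
Ratio of FPKM in β-arr1 KO to WT (log axis) for the 7 members and the 26 other complement genes with a ratio, 1 library per genotype. Points are ratios, bars are 95% intervals of counting error alone, the solid line marks 1 and the dashed lines mark 3/2 and 2/3. The members lie between the dashed lines, while Hc, Csmd1 and Cd55 lie above and 8 genes lie below.

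Since the C1q chains are known products of microglia and macrophages, markers of the cell types that the culture could hold were read beside them. Of 25 microglia and macrophage markers, 22 had a ratio, 21 of these were under 1 and 3 were below 2/3, with a median ratio of 0.778 and a range of 0.532 to 1.05. The ratios of 5 markers lay within the range of the 3 C1q chains. The C1q ratios of 0.738 to 0.793 were thus inside the spread of these markers and on the same side of 1. In bulk RNA, fewer cells of a type and less RNA per cell cannot be told apart.

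The 22 markers with a ratio summed to 4951 FPKM in WT against 3166 FPKM in β-arr1 KO, most of it Lyz2, a lysozyme of myeloid cells (3410 and 2009 FPKM, ratio 0.589). Without Lyz2 the 21 others summed to 1542 FPKM in WT against 1157 FPKM in β-arr1 KO, with a median ratio of 0.779. Tyrobp, an adaptor of microglial receptors, had 317 and 219 FPKM (ratio 0.690), Ctss, a lysosomal protease, had 167 and 122 FPKM (ratio 0.726), and Cd68, a lysosomal glycoprotein, had 185 and 119 FPKM (ratio 0.645). Other markers of the list differed less, and these are named after their values were seen. Csf1r, the receptor that microglia need for survival, had 146 and 135 FPKM (ratio 0.923, interval 0.891 to 0.956). Its row started at 61204804, the annotated start of Pdgfrb, whereas Csf1r is annotated from 61265226. Pdgfrb, of the fibroblast and pericyte list, had no row of its own, so the value of Csf1r may hold reads of both genes. Cx3cr1, the fractalkine receptor, had 24.8 and 25.9 FPKM (ratio 1.05), while P2ry12 and Tmem119, markers of resting microglia, had ratios of 0.922 and 0.961, and the intervals of these 3 include 1. The C1q ratios thus lay above those of Lyz2, Cd68, Tyrobp and Ctss and below those of Csf1r, Cx3cr1, P2ry12 and Tmem119. Gpr34 and Siglech were listed in β-arr1 KO only, at 2.65 and 0.0458 FPKM. Microglial transcripts were therefore plentiful in libraries labelled as astrocytes, and their median ratio was near the ratios of C1q. Their part in the C1q result was not tested.

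The other marker lists went in different directions. All 11 astrocyte markers were found, which summed to 404 FPKM in WT against 431 FPKM in β-arr1 KO, with a median ratio of 1.37 and 4 above 3/2, so that transcripts of the labelled cell type were present. S100b, the antigen by which the study checked purity, had 29.3 and 51.7 FPKM (ratio 1.77). Glul, which encodes glutamine synthetase, had 83.3 and 61.8 FPKM (ratio 0.742, interval 0.694 to 0.792), within the range of the C1q ratios, and Gja1, the connexin of astrocytes, had 34.0 and 29.4 FPKM (ratio 0.862). Glul and Gja1 were the only astrocyte markers under 1, and the ratio was over 1 for the other 9 of the 11. The 6 fibroblast and pericyte markers with a ratio summed to 618 and 323 FPKM, with a median ratio of 0.527 and 5 below 2/3, and were thus lower together in β-arr1 KO. The 8 oligodendrocyte lineage markers with a ratio summed to 106 and 152 FPKM (median ratio 1.56, 4 above 3/2). The 7 endothelial markers with a ratio were divided, with 5 over 1 and 2 under 1 (median ratio 1.44, 2 above 3/2, 1 below 2/3). Their sum was 80.6 and 78.0 FPKM, and Cdh5, the marker below 2/3, had 31.8 and 16.1 FPKM (ratio 0.507). Of the 8 neuronal markers, 6 were listed but stayed under 1 FPKM. The other 2, Tubb3 and Stmn2, had ratios of 1.34 and 1.18. The 4 members outside C1q, with ratios of 0.952 to 1.13, lay between the list medians under 1 and those over 1. The part of these cell types in the levels of the complement genes was not tested.

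**Figure D4:**
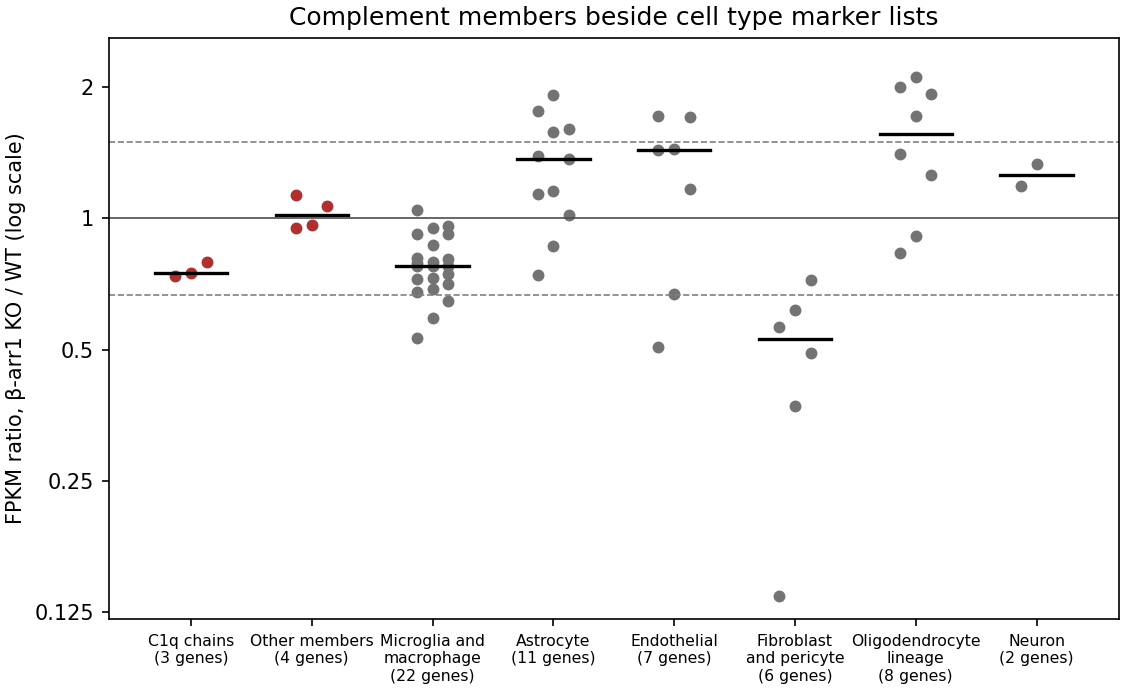
Ratio of FPKM in β-arr1 KO to WT (log axis) of the C1q chains and the other members (red) and of marker genes of 6 cell types (grey), 1 point per gene with a ratio, with the median of each list as a black line, 1 marked by a solid line and 3/2 and 2/3 by dashed lines. The C1q chains lie inside the range of the microglia and macrophage markers (0.532 to 1.05), and the other members lie near 1.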

How the data were processed

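Primary cultures of DG astrocytes from WT and β-arr1 KO mice (1 library each) were sequenced by the authors with paired reads of 100 bases, aligned to mm9 with TopHat (version 1.4.0 per the submitters' processing notes) and quantified with Cufflinks. For each library the authors deposited FPKM values above 0, which are scaled for transcript length and library size, beside the symbol, NCBI number and position of the gene. WT held 15417 rows and β-arr1 KO 15457.

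The tables were joined by symbol. Of rows sharing a symbol the highest was used, and a symbol missing from either table counted as 0 there. The analysis took genes of 1 FPKM or more in either library, and ratios were taken without a pseudocount. The limits of 3/2 and 2/3 are those of the study. Every member was named, of the other complement genes each with at least 1 FPKM, and of each marker list up to 4 of the highest, with Arrb1, S100b and genes whose loci overlap. The members and lists were chosen with earlier results of these data known. S100b was named for its use in the study. Outside this rule, Csf1r, Cx3cr1, P2ry12 and Tmem119 were named after their values were seen. Spi1 was named because it encodes PU.1, and Gpr34 and Siglech because they were listed in β-arr1 KO only. Of the lists, 1 regulator and 1 microglial marker are not reported here and were left out of the counts and sums after these were first computed.

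Depth was estimated from values under 0.15 FPKM of genes with 1 annotated transcript over 1000 bases, of which 68.9% (WT) and 69.6% (KO) lay within 5% of 1, 2 or 3 fragments with a length allowance of 170 bases. Fragments per gene used the longest transcript. This estimate was tested on simulated data with known depth. Division of reads among similar genes by Cufflinks is outside the intervals.

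After 1 was added to starts, 38.3% of WT starts equalled those of GENCODE vM1 on NCBIM37, against 3.07% as written, so coordinates count from 1. Sequences came from this genome and annotation. Python 3.11.15, numpy 2.4.6, pandas 2.3.3, scipy 1.17.1, matplotlib 3.10.9 and Biopython 1.88 were used. Alternatives were other minimums (0.1 and 5 FPKM, 1 FPKM in both libraries, none), pseudocounts of 0.1 and 1 FPKM, rescaling by the total, the median ratio or the upper quartile, limits of 2 and 1/2, and sums over rows that share a symbol, over near-identical neighbours and over overlapping rows.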

Additional observations from a re-analysis of the deposited data

How the results depend on the processing

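The counts of complement members above 3/2 and below 2/3 stayed at 0 under the alternative minimums, pseudocounts, rescalings and limits, and when rows that share a symbol or near-identical neighbours were summed. Most of these settings could not have raised a count of 0. The minimums added no member, wider limits and pseudocounts call fewer genes, and each measured member had 1 row per library. The rescaling factors on β-arr1 KO were only 0.988 to 1.003. When overlapping rows were summed, the count below 2/3 became 1, since C4b then had a ratio of 0.170 through the Stk19 row, which overlaps C4b in WT only. The median log2 ratio of the members was between -0.33 and -0.06, against -0.07 in the main analysis, where C1s was the middle gene. These values lay within the counting interval of C1s, which is wide and does not measure the stability of a median. The median was -0.33 with a minimum of 5 FPKM, which leaves 5 members, and when overlapping rows were summed. In these settings C1qb was the middle gene, so the median moved to the level of the C1q chains. The C1q ratios moved little, from 0.728 to 0.740 for C1qa, 0.783 to 0.796 for C1qb and 0.738 to 0.750 for C1qc. C1s was between 0.940 and 1.13, above 1 when the overlapping C1rb row was added.

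Of the other complement genes, Cd55 fell between the limits at 1.49 after rescaling to the median ratio or upper quartile and at 1.45 with a pseudocount of 1 FPKM, which also gave 0.693 for Cd46 and 0.791 for Gpr77. With that pseudocount, Hc was at 2.59, Csmd1 at 1.51 and Arrb1 at 0.432. No direction reversed among the genes called. No paired analysis was possible because each genotype has 1 library, and no library could be left out. Genes with few fragments, such as Hc in WT, have wide intervals, and none of the intervals covers differences between cultures.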
